A study of Homo sapiens with 6 samples.

Results

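The genes described here encode subunits of the activator protein 1 (AP-1) family of transcription factors, and they are 10 of the 56303 genes in the deposited table of counts. They were taken by gene symbol, whatever their values, as FOS, FOSB, FOSL1 and FOSL2 of the FOS family, JUN, JUNB and JUND of the JUN family, and ATF3, CREB5 and BATF3 of related families. All 10 were found, and all 10 passed the filter on low counts, so they are among the 21298 genes tested. AP-1 binds DNA as a dimer of basic leucine zipper (bZIP) proteins, in which a JUN protein pairs with another JUN protein, with a FOS protein or with an ATF or BATF protein, whereas FOS proteins do not form stable dimers with each other. The FOS and JUN dimers prefer the site TGACTCA, and dimers with ATF or CREB proteins prefer TGACGTCA or sites like it. AP-1 genes answer growth factors and stress through MAP kinases, and FOSL1 and JUN are well known in carcinomas for invasion and for output of the RAS pathway, which carries an activating HRAS mutation in T24 cells.

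T24, an established human cell line of bladder carcinoma origin with no engineered change of genotype, was transfected with a control siRNA (siNC) or with an siRNA against FBXL6 (siFBXL6) and harvested after 48 h. FBXL6 is an F-box protein that selects substrates for a ubiquitin ligase, and the study sequenced the RNA to look for what lies downstream of it. There were 3 samples in each group, all 6 with the same batch label, and the labels do not say whether the samples of a group were separate cultures, so p-values measure only the spread between these samples, which may be technical. The number at the end of each label was taken as a replicate number, although the study also numbers its siRNAs against FBXL6. The libraries labelled siNC held 58646515, 60967902 and 56814946 counts and those labelled siFBXL6 held 60968158, 60898556 and 60754015. FBXL6 itself (chromosome 8) had 362, 414 and 398 counts under the label siNC and 398, 344 and 350 counts under the label siFBXL6. Its normalized level was 6.61 ± 0.38 and 6.03 ± 0.483 CPM (CPM, counts scaled to a common library total; mean ± SD, n = 3 each), and its log2 fold change was -0.13 (95% interval -0.31 to 0.05, adjusted p = 0.247 in edgeR's quasi-likelihood test; fold changes are siFBXL6 over siNC). The groups overlapped in FBXL6, and other genes share 37.0% of the exon bases of FBXL6, so the samples are named throughout by their labels and every direction below is one between labels. The study also measured FBXL6 by qRT-PCR and Western blot in transfected cells, and those assays were not analysed here. ACTB, a cytoskeletal gene often used as a reference, stood at 1170 ± 24.5 and 1170 ± 25.8 CPM (n = 3 each). The cell type markers gave a mixed profile. The epithelial genes KRT7, KRT8, KRT18, KRT19, EPCAM and CDH1 were counted in every library and summed to 3410, 3290 and 3400 CPM against 3090, 3070 and 3080 CPM. The mesenchymal genes VIM, CDH2, ZEB1 and FN1 summed to 2660, 2580 and 2510 CPM against 2270, 2310 and 2320 CPM, most of it FN1, and CDH2 stood at 138 ± 1.83 and 91.7 ± 1.21 CPM (n = 3 each). Of the markers of mature urothelium, UPK1A, UPK1B, UPK3A and KRT20 were at or near 0 and UPK2 was low but counted in every library, at 1.41 ± 0.279 and 1.19 ± 0.0589 CPM (n = 3 each). Leukocyte markers summed to 1.59 CPM at most, endothelial markers to 3.23 CPM and fibroblast markers to 3.61 CPM. Of the epithelial markers 4 were lower (KRT7, KRT8, KRT19 and EPCAM) and CDH1 was higher in the libraries labelled siFBXL6, of the urothelial ones GATA3 and FOXA1 were lower, and of the mesenchymal ones VIM was higher and CDH2 and FN1 were lower. PECAM1, from 0.573 ± 0.126 to 1.39 ± 0.365 CPM (n = 3 each), was the only leukocyte, endothelial or fibroblast marker that passed the test, and the part of such shifts in the results below was not tested.

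In the libraries labelled siFBXL6, CREB5 was 4.02-fold higher (95% interval 3.6 to 4.49) than in those labelled siNC, and FOS, FOSL1 and JUN were higher by less than 1.5-fold. JUNB and ATF3 were lower. FOSB, FOSL2, JUND and BATF3 did not pass the threshold, an adjusted p under 0.05 over all genes tested. The 6 genes that passed, 4 higher and 2 lower, stand beside a background of 40.2% of all genes tested, 20.5% higher and 19.8% lower, so a small change that passed the test was common in these data. At 1.5-fold or more CREB5 passed, as 7.42% of all genes did, and JUNB lay close to that limit, reaching it with library size alone or without the first library labelled siNC or the second labelled siFBXL6 (log2 fold changes of -0.59, -0.65 and -0.59). The libraries of the groups did not overlap in 7 of the 10 genes (6 or 8 with other normalizations), against 48.2% of all genes tested. The median log2 fold change of the 10 genes was 0.04 and that of all genes tested -0.007. In RNA from a whole culture, a change in every cell and a change in the share of cells that express a gene cannot be told apart.

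Many AP-1 genes carry AP-1 or ATF/CREB type sites in their own promoters, so the 250 bases before each RefSeq start (GRCh38.p14) were searched on both strands for TGACTCA, for TGACGTCA, for the variant TGACATCA, for TGACGT, which TGACGTCA contains, and for the CArG box of serum response factor. The promoter table held 11 promoters of 8 of the genes, and FOSL1 and BATF3 were not matched. In the stretches below, 5′ to 3′ along the strand of the gene, capitals mark the match.
FOS: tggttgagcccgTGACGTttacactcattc
FOSB: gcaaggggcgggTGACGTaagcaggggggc
FOSL2: ggagtctggggtTGACGTgagtgaatccac
JUN: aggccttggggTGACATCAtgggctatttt
JUND: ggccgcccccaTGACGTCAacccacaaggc
JUND, nearer the start: tgcaaatgagcgACGTCAcccgcacccaat
ATF3: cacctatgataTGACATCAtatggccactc
CREB5: tgggaaggataTGACTCActcaagctagtt
The FOS stretch is chr14:75278752-75278781 on the plus strand, the FOSB stretch chr19:45467924-45467953 (plus) and the FOSL2 stretch chr2:28392780-28392809 (plus), and their matches begin 64, 60 and 66 bases before the start. JUN and ATF3 hold the same variant site, JUN at chr1:58784096-58784125 (minus), 67 bases before its start, and ATF3 at chr1:212565273-212565302 (plus), 123 bases before the first of its starts. JUND has the full TGACGTCA at chr19:18281804-18281833 (minus), 200 bases before its start, and the short site, here on the other strand, at chr19:18281692-18281721, 87 bases before it. CREB5 alone of these genes has TGACTCA, at chr7:28686078-28686107 (plus), 44 bases before the last of its 3 RefSeq starts. The JUN and CREB5 stretches lie inside exons of the deposited annotation, which begins those genes further upstream. That annotation also begins FOSL2 further upstream, with 8 bases of its stretch in an exon and the others inside the gene between exons. The FOS stretch has its last 8 bases in the first exon, and those of FOSB, JUND and ATF3 lie upstream of the annotated genes. JUNB had none of these letters in its window, and neither did the windows of the other start of ATF3 and the other starts of CREB5. No CArG box was found in the windows of these genes. Such absences say nothing of sites elsewhere, and counts per gene do not show which start was in use. Among all 35116 promoters in the table, TGACTCA was found in 4.2%, TGACGTCA in 1.65%, TGACATCA in 2.37%, TGACGT in 7.1% and the CArG box in 1.16%. A match is a description of the letters, and binding was not tested.

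Among the FOS family, FOS and FOSL1 were higher in the libraries labelled siFBXL6 and FOSB and FOSL2 did not pass the test. FOS (chr14:75278774-75282230), the immediate early gene of the family, whose promoter holds the short site shown above, stood at 3.76, 4.47 and 3.62 CPM in the libraries labelled siNC and at 6.05, 5.27 and 4.98 CPM in those labelled siFBXL6. All 3 libraries labelled siFBXL6 were above all 3 labelled siNC, at a low level of 208 to 366 counts per library. The log2 fold change was 0.46 (95% interval 0.24 to 0.67, adjusted p = 0.000677 in edgeR's test). FOSL1 (chr11:65892049-65900573), which encodes FRA-1, a subunit that ERK signaling raises and stabilizes, stood at 147, 157 and 159 CPM in the libraries labelled siNC and at 212, 199 and 203 CPM in those labelled siFBXL6. The groups were far apart compared with their spread, and every library labelled siFBXL6 was above every one labelled siNC. The log2 fold change was 0.41 (95% interval 0.34 to 0.47, adjusted p = 3.38e-12 in edgeR's test).

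FOSL2 (chr2:28392448-28417312), which encodes FRA-2, stood at 111, 115 and 112 CPM and at 111, 109 and 107 CPM in the libraries labelled siNC and siFBXL6. Its groups touched at the digits shown and were separate only before rounding. The log2 fold change of FOSL2 was -0.05 (95% interval -0.11 to 0.02, adjusted p = 0.256 in edgeR's test), so at this depth a change beyond -0.11 lay outside the interval. FOSB (chr19:45467995-45475179), an immediate early gene like FOS, stood at 2.43, 2.64 and 3.08 CPM and at 2.3, 2.68 and 2.09 CPM. Its libraries overlapped, with the second library labelled siFBXL6 above both lower ones labelled siNC. The log2 fold change of FOSB was -0.2 (95% interval -0.49 to 0.08, adjusted p = 0.264 in edgeR's test), an interval that its 126 to 177 counts per library leave wide.

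**Figure D1:**
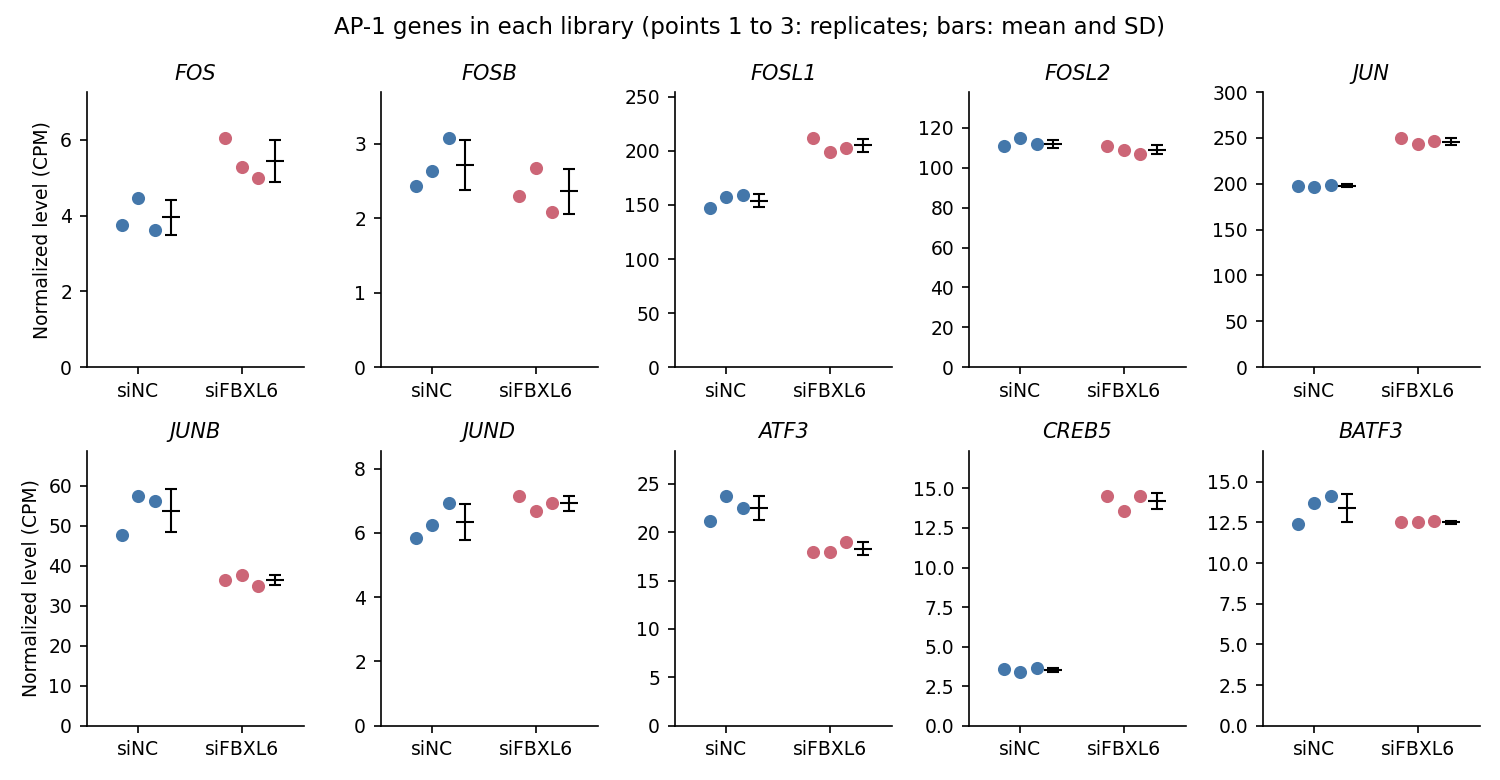
Normalized level (CPM, linear axis from 0) of each AP-1 gene in the 3 libraries labelled siNC (blue) and the 3 labelled siFBXL6 (red), with mean and SD in black; the axis differs between genes. CREB5 goes from 3.53 ± 0.106 to 14.2 ± 0.487 CPM, while JUNB goes from 53.8 ± 5.36 to 36.4 ± 1.27 CPM.

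In the JUN family, JUN and JUNB moved in opposite directions. JUN (chr1:58780788-58784327), the subunit with the strongest activation domain of the family, stood at 198, 196 and 199 CPM in the libraries labelled siNC and at 250, 243 and 247 CPM in those labelled siFBXL6. The libraries of each group lay within a few CPM of each other and the groups did not overlap. JUN had a log2 fold change of 0.32 (95% interval 0.26 to 0.38, adjusted p = 6.35e-11 in edgeR's test). JUNB (chr19:12791496-12793315), a weaker activator that can hold back JUN when paired with it, stood at 47.7, 57.4 and 56.3 CPM in the libraries labelled siNC and at 36.5, 37.6 and 35 CPM in those labelled siFBXL6. The first library labelled siNC was below the others of its group, yet above every library labelled siFBXL6. JUNB had a log2 fold change of -0.57 (95% interval -0.66 to -0.47, adjusted p = 1.43e-11 in edgeR's test), a ratio of 0.676 that falls just short of 1.5-fold. Of the exon bases counted for JUNB, 14.2% are shared with HOOK2 on the opposite strand, a gene named here for that overlap after its values were seen. HOOK2 was also lower, with a log2 fold change of -0.33 (adjusted p = 3.69e-10 in edgeR's test), and since the sources used here do not say whether the counting used strand, reads of both genes in the shared stretch cannot be told apart. The other 9 AP-1 genes share no exon bases with another gene. JUND (chr19:18279760-18281622), usually the steadily expressed member of the family, stood at 5.85, 6.25 and 6.93 CPM and at 7.14, 6.69 and 6.94 CPM. The third library labelled siNC lay among those labelled siFBXL6, so the groups overlapped. JUND had a log2 fold change of 0.13 (95% interval -0.05 to 0.3, adjusted p = 0.254 in edgeR's test).

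Of the members outside the FOS and JUN families, CREB5 was higher, ATF3 was lower and BATF3 did not pass the test. CREB5 (chr7:28299321-28825894), a relative of ATF2 that pairs with JUN, had 208, 211 and 208 counts in the libraries labelled siNC, against 877, 824 and 872 counts in those labelled siFBXL6. Normalized, CREB5 stood at 3.56, 3.42 and 3.62 CPM and at 14.5, 13.6 and 14.5 CPM. Each group was tight, and the lowest library labelled siFBXL6 was far above the highest labelled siNC. CREB5 had a log2 fold change of 2.01 (95% interval 1.85 to 2.17, adjusted p = 1.61e-20 in edgeR's test) and rank 55 among all genes tested by p. ATF3 (chr1:212565334-212620777), a stress gene whose product often represses as a homodimer, stood at 21.2, 23.7 and 22.5 CPM in the libraries labelled siNC and at 17.9, 17.9 and 19 CPM in those labelled siFBXL6. All libraries labelled siFBXL6 were below all labelled siNC. ATF3 had a log2 fold change of -0.3 (95% interval -0.41 to -0.19, adjusted p = 2.24e-05 in edgeR's test), opposite in sign to that of JUN. The site TGACATCA was found before JUN and before the first start of ATF3, and a link between site and direction was not tested. BATF3 (chr1:212686418-212699985), which pairs with JUN proteins and is best known in lymphoid and dendritic cells, stood at 12.4, 13.7 and 14.1 CPM and at 12.5, 12.5 and 12.6 CPM. The lowest library labelled siNC was just below those labelled siFBXL6 and the others were above them. BATF3 had a log2 fold change of -0.1 (95% interval -0.23 to 0.03, adjusted p = 0.234 in edgeR's test). An exact two-sided permutation test of 3 samples against 3 cannot go below p = 0.1, the value it gave for the 7 genes without overlap, and it gave 0.3 for FOSB, 0.2 for JUND and 0.4 for BATF3.

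**Figure D2:**
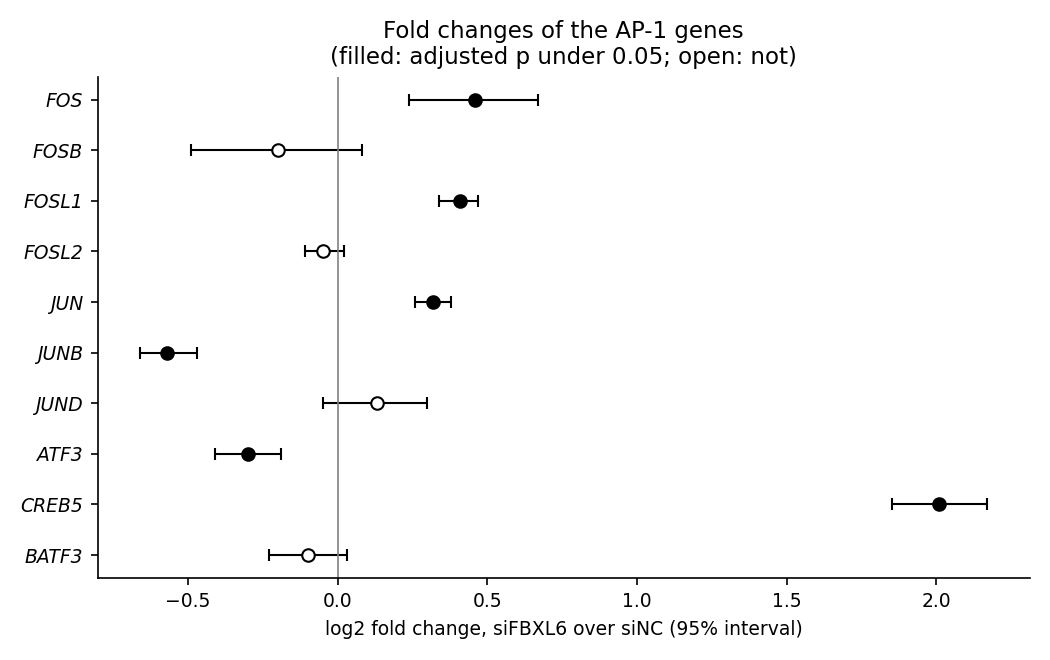
Log2 fold change (siFBXL6 over siNC) of each AP-1 gene, with lines for the 95% interval from edgeR's model (n = 3 per group) and filled points for an adjusted p under 0.05. CREB5 stands alone at 2.01, FOS, FOSL1 and JUN lie between 0.32 and 0.46, and JUNB and ATF3 lie at -0.57 and -0.3.

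To compare the genes with each other, CPM was divided by the summed exon length in kilobases. On this scale of level per length, the order in the libraries labelled siNC was FOSL1 with 81.8 ± 3.38, JUN with 55.8 ± 0.329, JUNB with 29.6 ± 2.94 and FOSL2 with 15.7 ± 0.265 CPM per kilobase (n = 3). ATF3, BATF3, JUND and FOS followed with 5.57, 4.94, 3.4 and 1.22 CPM per kilobase, and FOSB and CREB5 were lowest with 0.489 and 0.303. No neighbours in that order had overlapping ranges over the 3 libraries, though the lowest library for ATF3, at 5.26 CPM per kilobase, was close to the highest for BATF3, at 5.2. FOSL1 and JUN thus stood well above FOS and JUND in these cells. In the libraries labelled siFBXL6, FOSL1 (108 ± 3.33), JUN (69.6 ± 1.09), JUNB (20 ± 0.697) and FOSL2 (15.2 ± 0.307 CPM per kilobase, n = 3) kept the top places. BATF3 and ATF3 overlapped there at 4.62 and 4.52 CPM per kilobase, and CREB5 at 1.22 was above FOSB at 0.424. Even after its 4.02-fold rise, CREB5 remained below FOS (1.68 CPM per kilobase) on this scale. CREB5 made up 0.53% of the summed level of the 10 genes, against 0.152% in the libraries labelled siNC. These values rest on the length of all annotated exons, 11674 bases for CREB5 and 3238 for FOS. In CPM alone, CREB5 stood above FOS in the libraries labelled siFBXL6, at 14.2 against 5.43. Which transcripts of a gene were expressed was not determined.

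The JUN family summed to 85.2, 90.4 and 90.8 CPM per kilobase in the libraries labelled siNC and to 94.6, 92.7 and 92.6 in those labelled siFBXL6. These sums did not overlap but lay close together, with JUN and JUNB moving in opposite directions underneath. JUNB made up 30.7%, 34.9% and 34.1% of the JUN family in the libraries labelled siNC and 21.2%, 22.3% and 20.8% in those labelled siFBXL6, and the ratio of JUN to JUNB went from 1.9 ± 0.204 to 3.49 ± 0.153 (n = 3 each). The FOS family summed to 95.1, 101 and 102 CPM per kilobase and to 130, 123 and 124, and FOSL1 made up 82.4% ± 0.499 and 86.2% ± 0.326 of it (n = 3 each). The ratio of the FOS family to the JUN family was 1.12 in every library labelled siNC, and 1.37, 1.33 and 1.34 in those labelled siFBXL6. Summed over the 10 genes, the level per length was 199 ± 7.28 and 229 ± 4.67 CPM per kilobase (n = 3 each), a ratio of 1.15 ± 0.0483. These sums are of RNA, and the proteins and dimers were not measured in these libraries.

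**Figure D3:**
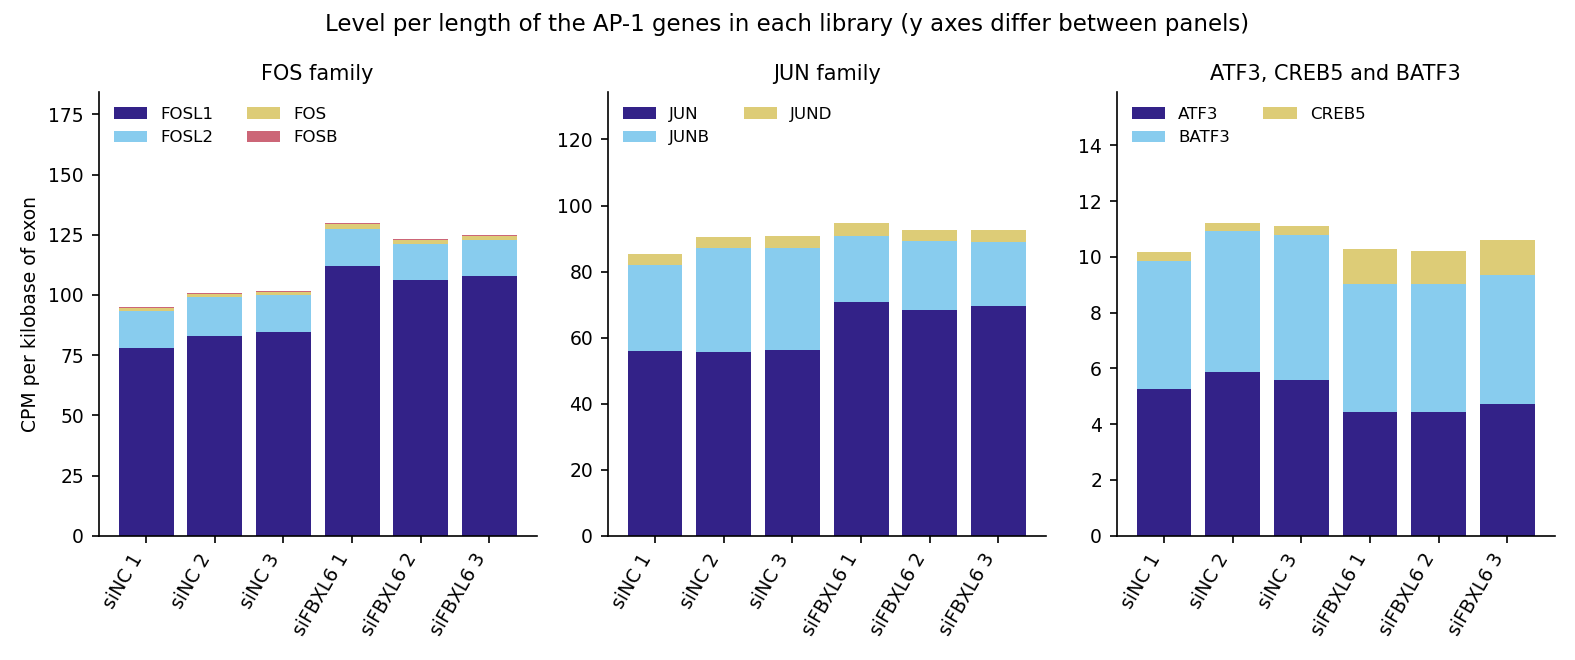
Level per length (CPM per kilobase of exon, stacked from 0) of the AP-1 genes in each of the 6 libraries, by family; the axis differs between panels. FOSL1 fills most of the FOS family, and JUNB goes from 33.2% to 21.4% of the JUN family while JUN goes from 62.9% to 74.6%.

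The genes nearest to CREB5 and FOSL1 in profile, those AP-1 genes with the smallest adjusted p, were found by the Euclidean distance of mean-centred log2 CPM over the 6 libraries, over genes that averaged 10 CPM or more. With 6 libraries in 2 groups, such a distance rests mostly on the size of the group difference. For CREB5 they were SERPINB10 (distance 0.127, 47.8 to 201 CPM), SCEL (0.165, 78.6 to 291 CPM) and SERPINB2 (0.168, 86.4 to 372 CPM), out of 9887 genes. SERPINB2 encodes a plasminogen activator inhibitor and SCEL a protein of the cornified envelope. SERPINB10 and SERPINB2 are neighbours on the same strand that share 547 exon bases. The handling of reads on several genes is not given, so their counts may not be separate measurements. For FOSL1 they were CLTB (distance 0.0531), a clathrin light chain, RP11-536C5.7 (0.0599) and C2orf68 (0.0636), out of 9886 genes, with log2 fold changes of 0.41, 0.41 and 0.38. RP11-536C5.7 shares 11.7% of its exon bases with PEA15 on the opposite strand.

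Other bZIP genes, which can pair with AP-1 proteins or take their sites, formed a list of 26, of which 25 were tested. Under the label siFBXL6, 13 of them (52%) were higher and 3 (12%) lower, beside 20.5% and 19.8% of all genes tested, with a median log2 fold change of 0.18. The small MAF genes MAFF, MAFG and MAFK, which have no activation domain and pair with NFE2 and BACH proteins, were all higher. MAFF went from 36.4 ± 0.557 to 56.5 ± 2.37 CPM (n = 3 each), a log2 fold change of 0.64 (adjusted p = 2.47e-15 in edgeR's test), and MAFK and MAFG had log2 fold changes of 0.67 and 0.39. MAFK shares 18.1% of its exon bases with TMEM184A on the opposite strand. ATF2, a close relative of CREB5, went from 14 ± 0.723 to 19.8 ± 0.649 CPM (n = 3 each), a log2 fold change of 0.5. ATF7, another close relative, named after its values were seen, stood at 13.9 ± 0.212 and 14.2 ± 0.637 CPM (n = 3 each) with overlapping groups, a log2 fold change of 0.03 (95% interval -0.09 to 0.16, adjusted p = 0.706 in edgeR's test). CEBPG had a log2 fold change of 0.34. The genes that were lower were JDP2, CREM and NFE2L2, with log2 fold changes of -0.22, -0.14 and -0.11, of which CREM and NFE2L2 are named after their values were seen. The groups overlapped in NFE2L2, which shares 20.9% of its exon bases with other genes. JDP2, a repressor that pairs with JUN, stood at 94.3, 93.3 and 91.5 CPM in the libraries labelled siNC and at 81.2, 76.8 and 81.5 CPM in those labelled siFBXL6, without overlap. Of the BATF genes other than BATF3, BATF2 went from 1.31 ± 0.206 to 2.29 ± 0.229 CPM (n = 3 each, log2 fold change 0.8), and BATF, counted 0, 6 and 6 times against 12, 12 and 2 times, was too low to test.

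Upstream of AP-1, the list of RAS and MAP kinase genes and serum response regulators had 25 genes, all tested, with 7 (28%) higher and 8 (32%) lower, beside 20.5% and 19.8% of all genes tested, and a median log2 fold change of -0.01. ELK3, an ETS factor of the serum response, went from 61.9 ± 0.405 to 96.7 ± 1.84 CPM (n = 3 each), a log2 fold change of 0.64. MAP2K1, which encodes a kinase that activates ERK, and NRAS had log2 fold changes of 0.51 and 0.58. MAP2K2, whose product also activates ERK, and MAPK3, which encodes an ERK, were lower, with log2 fold changes of -0.18 and -0.34, and both are named after their values were seen. MAPK10, a JNK gene, went from 9.23 ± 0.479 to 4.93 ± 0.702 CPM (n = 3 each, log2 fold change -0.91), and MAP3K1, a kinase upstream of JNK, had a log2 fold change of -0.29. The JNK gene MAPK8 and MAP2K4, also upstream of JNK, were higher, with log2 fold changes of 0.17 and 0.33. MAPK9, also a JNK gene, did not pass the test (log2 fold change -0.01). MAPK8, MAP2K4 and MAPK9 are named after their values were seen. Genes of this list thus moved both ways, and MAP2K1 shares 11.5% of its exon bases with genes on the opposite strand.

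Immediate early genes other than the AP-1 genes formed a list of 26 with 25 tested, of which 11 (44%) were higher and 2 (8%) lower, beside 20.5% and 19.8% of all genes tested, with a median log2 fold change of 0.2. PPP1R15A, a stress gene that restores translation, went from 1030 ± 34.6 to 1610 ± 14.3 CPM (n = 3 each), a log2 fold change of 0.65 (adjusted p = 1.75e-19 in edgeR's test). TRIB1, IER3 and KLF6 had log2 fold changes of 0.67, 0.4 and 0.32, and IER3 shares 26.5% of its exon bases with a gene on the opposite strand. CCN2, listed in the table as CTGF, went from 9.1 ± 0.478 to 5.95 ± 0.484 CPM (n = 3 each, log2 fold change -0.61). The other gene that was lower was KLF10, named after its values were seen, with a log2 fold change of -0.19.

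Textbook targets of AP-1 formed a list of 28, with 27 tested. Of these, 21 (77.8%) were higher and 3 (11.1%) lower, beside 20.5% and 19.8% of all genes tested, and the median log2 fold change was 0.61, against -0.007 for all genes. At 1.5-fold or more 14 of the tested targets passed, all of them higher, beside 7.42% of all genes tested, higher or lower. The list is known to hold inflammatory and growth factor genes that answer NF-kB and other factors too, and it was written with earlier results of these data known. IL1B, a cytokine, went from 143 ± 2.35 to 395 ± 2.84 CPM (n = 3 each), a log2 fold change of 1.47 (95% interval 1.41 to 1.53, adjusted p = 9.27e-29 in edgeR's test). The interstitial collagenase gene MMP1 went from 150 ± 6.13 to 356 ± 2.84 CPM and HBEGF, an EGF receptor ligand, from 97.5 ± 1.61 to 217 ± 3.66 CPM (n = 3 each), log2 fold changes of 1.25 and 1.15. MMP1 shares 7.61% of its exon bases with WTAPP1 on the opposite strand. In every one of these genes all libraries labelled siFBXL6 were above all labelled siNC. The 3 that were lower, named after their values were seen, were MMP13 (log2 fold change -0.58), HMOX1 (-0.36, with overlapping groups) and EDN1 (-0.26), so the matrix metalloproteinase genes MMP1 and MMP13 moved in opposite directions. MMP3 was too low to test, with 4, 1 and 4 counts against 15, 8 and 16.

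**Figure D4:**
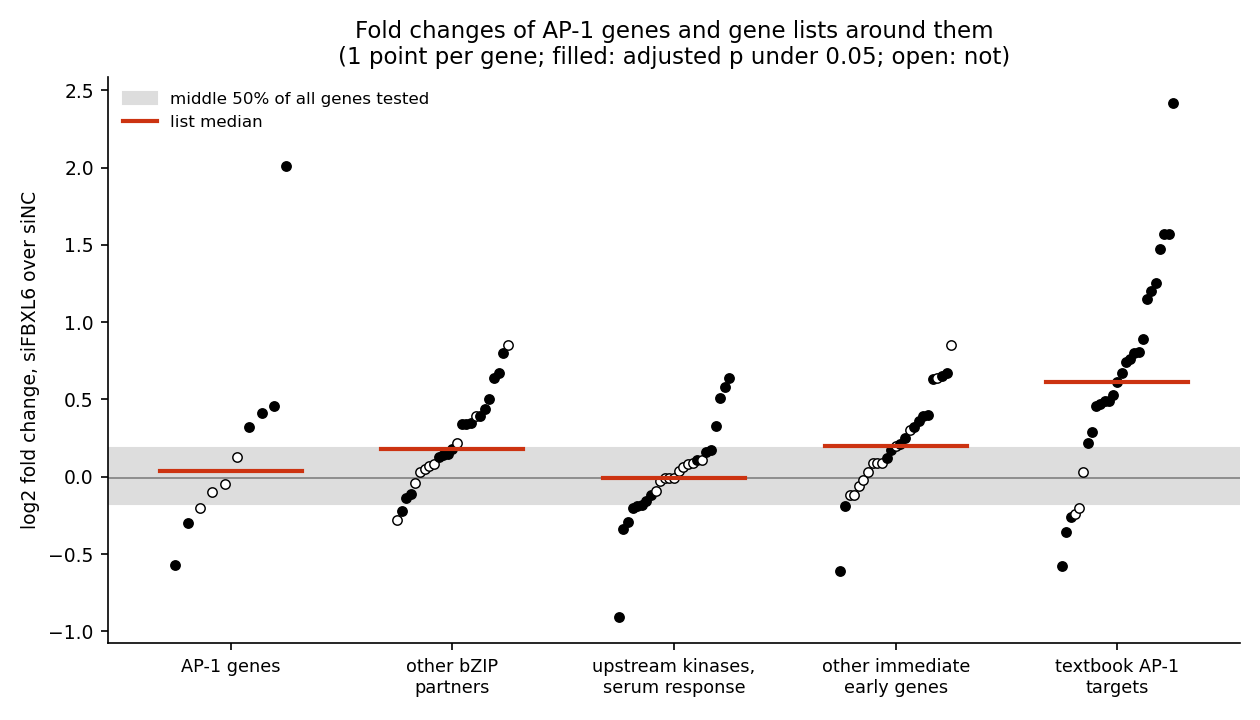
Log2 fold change (siFBXL6 over siNC) of every tested gene of the AP-1 family and of the lists around it, 1 point per gene, filled for an adjusted p under 0.05; red lines are list medians and the grey band is the middle of all genes tested, from -0.178 to 0.187. The textbook targets lie mostly above the band with a median of 0.61, while the AP-1 genes themselves spread from -0.57 to 2.01 around a median of 0.04.

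The targets were searched for TGACTCA in the same window of 250 bases, and 4 of the 17 with a promoter in the table held it. They are shown as the targets with this match, and were searched for after the values of the list were known. All 4 were higher in the libraries labelled siFBXL6, as were 77.8% of the tested targets with or without a match, so nothing about the site is read from that count. Here TGAGTCA is the same site read from the other strand.
IVL: gatgcctgtggTGAGTCAggaaggggttag
CXCL8: aggaagtgtgaTGACTCAggtttgccctga
PLAUR: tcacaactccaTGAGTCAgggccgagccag
IL11: ggcagggagggTGAGTCAggatgtgtcagg
IVL (chr1:152908412-152908441, plus strand), a precursor of the cornified envelope, went from 12.9 ± 0.878 to 38.2 ± 1.73 CPM (n = 3 each), a log2 fold change of 1.57 (adjusted p = 2.38e-22 in edgeR's test), with the match 123 bases before its start. CXCL8 (chr4:73740421-73740450, plus), a neutrophil chemokine whose AP-1 site is well studied, had the match 137 bases before its start and a log2 fold change of 0.89. PLAUR (chr19:43670337-43670366, minus), the urokinase receptor gene, and IL11 (chr19:55370541-55370570, minus), a cytokine gene, had matches 186 and 96 bases before their starts and log2 fold changes of 0.67 and 0.81. The PLAUR stretch lies inside an exon of the deposited annotation and those of IVL, CXCL8 and IL11 lie upstream of the annotated exons.

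Over all genes with a promoter in the table, 11779 were tested, of which 23.6% were higher and 24.6% lower. Among the 532 of them with TGACTCA in the window, 33.6% were higher and 16.7% lower, with a median log2 fold change of 0.06 against -0.01. For TGACGTCA, found before 369 tested genes, 29.3% were higher and 20.6% lower, and for TGACGT, before 1415, 29.2% and 20.7%. TGACATCA, the site of JUN and ATF3, had 26.2% higher and 26.6% lower among 248 genes, and the CArG box 25.1% and 25.1% among 179. These shares are a description over genes, which are not replicates, and what promoters with a site share besides it, such as base composition or level of expression, was not tested.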

How the data were processed

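RNA-seq counts of 6 T24 libraries were analysed. The authors deposited counts per gene without normalization, from featureCounts (Subread 1.5.1) on GRCh38, with the summed exon length of each gene as the other column used. The study's methods name Trimmomatic 0.36 and HISAT2, and the submitters' processing notes name fastp 0.23.0 and STAR; which of them made these counts was not settled. The kit marked strand, but the annotation release, the strand setting and the handling of reads on several genes are not given in the sources used here, so genes that share exon bases with another gene are uncertain.

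Genes were filtered with filterByExpr (21298 left), scaled by TMM, and compared in R 4.3.3 with the quasi-likelihood test of edgeR 4.0.16 (limma 3.58.1), with condition as the only term and Benjamini-Hochberg adjustment over the genes tested. CPM values use the TMM library sizes, and intervals are 95% intervals from the model's standard error. Totals ran from 56814946 to 60968158 counts. The biological coefficient of variation was 3.57%, and libraries of a group differed by more than sampling noise. Promoters came from RefSeq (GRCh38.p14), and exon overlaps from the deposited coordinates.

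Named were the 10 members, FBXL6, ACTB, JDP2, BATF, BATF2, the 5 genes with the smallest adjusted p in each list and the 3 nearest profiles of 2 members; others were chosen after their values were seen. The result for 1 gene that this rule selects is left out. The members and lists were chosen with earlier results of these data known, so they received counts and medians and no test as a set. Alternatives were DESeq2 1.42.0, other normalizations, filters and thresholds, the replicate number as a block, and each library left out. The steps were tested on simulated counts.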

Additional observations from a re-analysis of the deposited data

How the results depend on the processing

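The 6 AP-1 genes that passed the test (FOS, FOSL1, JUN, JUNB, ATF3 and CREB5) passed with the same direction in each of 13 alternatives: 3 other normalizations, DESeq2, 2 other filters, the replicate block and each of the 6 libraries left out. FOSB, FOSL2, JUND and BATF3 passed in none of them. The log2 fold change stayed between 1.98 and 2.04 for CREB5, between -0.65 and -0.52 for JUNB and between 0.37 and 0.56 for FOS. Over all genes, 8569 passed, against 7692 with DESeq2, 8302 with no filter on low counts and 8448 with 10 counts in every sample. Requiring a change of at least 1.5-fold left 1581 of all genes and 1 of the AP-1 genes, CREB5, since this criterion asks for a larger change. JUNB reached 1.5-fold as well with library size alone (-0.59), without siNC replicate 1 (-0.65) and without siFBXL6 replicate 2 (-0.59). The AP-1 genes whose groups did not overlap numbered 7, against 6 with RLE factors, 8 with upper-quartile factors and 7 with library size alone, choices added after seeing the data. Over the 13 alternatives the genes that passed numbered 13 to 18 among the other bZIP genes (16 in the report), 14 to 16 among the upstream genes (15), 13 to 15 among the immediate early genes (13) and 23 to 25 among the textbook targets (24). With library size alone the share of passing genes that were higher was 45.1%, against 50.9% with TMM. Same-numbered libraries did not deviate together (correlations of -0.086, 0.006 and 0.034 over 9887 genes), so the numbers were not taken as pairs. With the replicate block 8408 genes passed, the same 6 AP-1 genes among them. With a promoter window of 300 bases, chosen after seeing the data, 33.2% of tested genes with TGACTCA were higher and 17.4% lower. Among the AP-1 genes the standard error of the log2 fold change was largest for FOSB (0.139) and FOS (0.106), with 126 to 366 counts per library. CREB5 was as low in the libraries labelled siNC, with 208, 211 and 208 counts. Small differences in genes at that depth may have been missed.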
